A study of Mus musculus with 20 samples.

Results

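Histone genes were examined in macrophages grown from mouse bone marrow (BMDM), in total RNA libraries that keep transcripts with and without a poly(A) tail. Members were the genes whose symbols start with Hist1h, Hist2h, Hist3h, Hist4, H2af, H3f or H1f, with names taken from GENCODE M21. This gave 67 histone genes among 14456 listed genes. By the same rule the annotation holds 91 genes, and the other 24 are not among the listed genes and were not analysed here. The 67 comprised 53 replication-dependent genes, 9 replacement genes and 5 genes that the annotation does not class as protein-coding.

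Replication-dependent histone genes are expressed mainly in S phase, when new DNA is packaged. They lie in clusters, have no introns in most cases, and their mRNAs end in a conserved stem-loop instead of a poly(A) tail, which the stem-loop binding protein recognises. Replacement histones such as H3.3, H2A.Z and H1.0 are made from separate genes throughout the cell cycle, mostly with introns and poly(A) tails, and are deposited in chromatin outside of replication by their own chaperones.

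BMDM had been grown from the marrow of male C57BL/6J mice 8 to 12 weeks old with M-CSF at 25 ng/ml for 6 days. In the first experiment the cells stood for 24 h in 25 mM glucose (high glucose, 4 libraries) or in 5.5 mM glucose with 19.5 mM mannitol (normal glucose, 4 libraries). In the second, naive BMDM received PBS, exosomes from normal-glucose BMDM (BMDM–NG-exo) or exosomes from high-glucose BMDM (BMDM–HG-exo) for 24 h, at 2000000000 particles/ml, with 4 libraries each. All 5 groups were wild type. Both experiments are separate, and the sources do not show that they match apart from the exposures, so groups were tested within each experiment. The labels do not tie libraries to single animals, so p-values measure the spread between libraries, which may be partly technical. Values are normalized counts, which are reads divided by 1 size factor per library, and error is the SD over 4 libraries unless an SE is named.

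The libraries held between 34016445 and 56310712 reads on the listed genes. All 7 macrophage markers of a fixed list were present, with a summed level between 620993 and 868348 normalized counts per library. The summed levels of 4 of 8 neutrophil markers, 3 of 6 stromal and endothelial markers and 1 of 4 progenitor markers reached at most 253, 332 and 125, and no lymphocyte or erythroid marker was among the listed genes. In bulk RNA, fewer cells of a type and less RNA per cell cannot be told apart.

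The stem-loop was sought as a 16-base pattern after the stop codon of each GENCODE M21 transcript model (GRCm38 build). It was found in 34 of 53 replication-dependent genes and in 1 of 9 replacement genes, H2afx, against 65 of 21762 coding genes in the whole annotation (0.299%). In 13 of the other 19 replication-dependent models, fewer than 16 bases follow the stop codon, so there was nothing to search. The stem-loops are shown for the called genes that have it and for H2afx, with 5 transcript bases on each side. Capitals mark the stem-loop, in DNA letters:
Hist1h1c: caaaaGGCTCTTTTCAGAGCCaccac
Hist1h1d: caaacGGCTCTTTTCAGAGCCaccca
Hist2h2ac: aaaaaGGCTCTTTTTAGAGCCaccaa
Hist2h4: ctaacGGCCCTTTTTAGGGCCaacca
H2afx: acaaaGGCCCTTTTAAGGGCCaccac
The 16 bases lie at chr13:23739512-23739527 (plus strand), chr13:23555787-23555802 (plus), chr3:96220418-96220433 (minus), chr3:96262939-96262954 (minus) and chr9:44335240-44335255 (plus). The 35 members with a stem-loop shared 7 versions of it, and the version of Hist1h1c and Hist1h1d was found in 17 of them. H2AX, the histone phosphorylated at DNA breaks, was thus the sole replacement gene here whose model carries this element.

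Promoters of 56 of the 62 coding members were matched in RefSeq (GRCm38.p6). The 250 bases before the start were searched on both strands for the general promoter elements CCAAT and, apart from it, TATAAA. They were also searched for the octamer ATGCAAAT, known from histone H2B promoters. The last element was the H1 box AAACACA, known from linker histone promoters. CCAAT stood in 39 of 48 replication-dependent promoters (81.2%), in 5 of 8 replacement promoters and in 34.5% of all 27025 promoters. The octamer stood in 4 of 9 H2B and 6 of 14 H2A promoters (1.61% of all), and AAACACA in 4 of 5 promoters of replication-dependent H1 genes (6.22% of all). TATAAA was present in 25 of 48 replication-dependent promoters (52.1%), in 1 of 8 replacement promoters and in 13% of all. The 4 promoters below belong to a linker and a core member of the replication-dependent class that were lower in high glucose, and to the replacement members with the smallest p-value in each direction, with the motifs in capitals:
Hist1h1c: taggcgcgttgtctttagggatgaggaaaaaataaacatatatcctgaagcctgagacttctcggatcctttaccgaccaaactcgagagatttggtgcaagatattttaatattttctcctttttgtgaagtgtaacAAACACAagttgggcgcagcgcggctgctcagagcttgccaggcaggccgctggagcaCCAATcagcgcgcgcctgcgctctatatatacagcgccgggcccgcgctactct
Hist2h2ac: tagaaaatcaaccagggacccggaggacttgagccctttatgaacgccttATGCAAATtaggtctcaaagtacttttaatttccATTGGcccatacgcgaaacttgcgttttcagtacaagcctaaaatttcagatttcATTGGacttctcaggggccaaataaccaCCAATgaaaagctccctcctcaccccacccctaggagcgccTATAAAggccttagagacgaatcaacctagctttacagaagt
H1f0: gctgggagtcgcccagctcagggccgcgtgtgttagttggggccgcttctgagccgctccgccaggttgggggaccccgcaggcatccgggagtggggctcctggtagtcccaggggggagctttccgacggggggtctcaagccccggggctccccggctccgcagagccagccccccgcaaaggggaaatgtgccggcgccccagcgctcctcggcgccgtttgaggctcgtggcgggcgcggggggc
H2afz: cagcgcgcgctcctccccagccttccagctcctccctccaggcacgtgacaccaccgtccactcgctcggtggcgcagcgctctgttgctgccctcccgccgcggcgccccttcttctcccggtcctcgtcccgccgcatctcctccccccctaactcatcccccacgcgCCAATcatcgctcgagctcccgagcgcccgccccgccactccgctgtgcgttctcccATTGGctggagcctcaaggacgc
They lie at chr13:23738557-23738806 (plus), chr3:96220881-96221130 (minus), chr15:79027962-79028211 (plus) and chr3:137864237-137864486 (plus). The Hist2h2ac window holds 3 CCAAT boxes, 1 octamer and 1 TATAAA, and it also precedes Hist2h2be, which is read in the other direction. The Hist1h1c window holds 1 AAACACA and 1 CCAAT, that of H2afz holds 2 CCAAT, and the H1f0 window holds none of the 4 motifs. That H1f0 window ends at position 79028211, while the GENCODE M21 model of H1f0 starts at 79028450. The bases directly before the GENCODE start were thus not searched.

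Linker histone Hist1h1c (H1.2) was the member with the highest level per kb of annotated exon, at 3495 normalized counts per kb over the 20 libraries. Next came H3f3b at 2591, Hist2h2ac at 2051, H2afz at 1893 and H3f3a at 1729. Among replication-dependent H1 genes, Hist1h1e followed at 1460 per kb and Hist1h1b at 445. H2A was led by Hist2h2ac, Hist1h2ak (1267) and Hist1h2ai (619), and H4 by Hist1h4d (1149), Hist1h4h (1001) and Hist1h4k (560.3). H2B and H3 levels were lower, with Hist1h2bc at 555, Hist1h2bn at 506 and Hist1h2bg at 465 per kb, and Hist1h3e at 433, Hist2h3b at 366 and Hist1h3b at 269. Levels per kb rest on the annotated exons, which run to 7425 bp for Hist1h1d and 4446 bp for Hist1h2be, and such models give low values.

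The replacement genes spanned H3f3b and H3f3a, which encode the same H3.3 protein, H2afz (H2A.Z), H2afj at 1196 per kb, H1f0 (H1.0) at 938 and H2afy (macroH2A1) at 813. H2afv, the second H2A.Z gene, stood at 334 per kb, H2afx at 276 and H1fx (H1.10) at 54.9. Of the normalized counts per kb of the listed coding H3 genes, H3f3a and H3f3b together made up 67.0% ± 1.57 in normal glucose. In the 3 exosome groups it was between 67.5% and 68.9% on average. Copies of histone genes are near identical, and in 20 members at least 50% of all 100-base windows also occur in transcripts of genes elsewhere, so reads could be split or lost there. In 15 replication-dependent genes under 10% of windows were shared.

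The first question was whether 24 h of high glucose changed histone transcripts. As a class, replication-dependent transcripts had a lower summed count in high glucose, and the replacement sum was not lower. The 53 replication-dependent genes summed to 20124, 21233, 22429 and 21118 normalized counts in the normal glucose libraries and to 20018, 17850.4, 19935 and 17543 in the high glucose libraries. The highest high glucose library thus lay just under the lowest normal glucose library, and the mean went from 21226 ± 944 to 18836.5 ± 1323 (ratio 0.887). The 9 replacement genes summed to 26793 ± 465 and 27463 ± 166 (ratio 1.03), with overlap between the groups. As a share of all reads, the replication-dependent class took between 0.0483% and 0.0546% in normal and between 0.0415% and 0.0475% in high glucose.

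**Figure D1:**
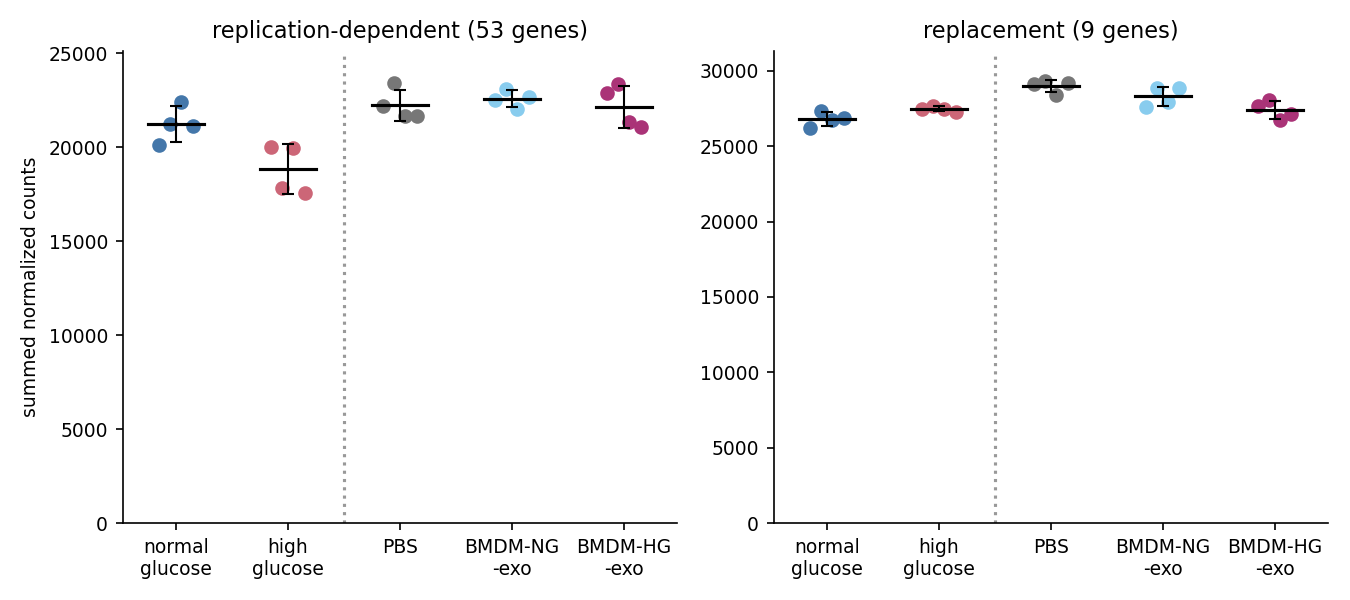
Summed normalized counts (axis from 0) of the 53 replication-dependent genes (left) and the 9 replacement genes (right) in the 5 groups. Points are libraries, bars are the mean and SD of 4 libraries, and the dotted line separates both experiments. Within the first experiment the replication-dependent sum is lower in high glucose (mean 18836.5), and the replacement sum lies within 26225 and 29294 in all libraries.

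By sign, 44 of the 53 replication-dependent genes had a log2 fold change below 0 (83.0%), against 50.8% of all 14425 genes tested. Their median log2 fold change was -0.23, against -0.0031 over all genes. At an adjusted p under 0.05, 6 of the 53 were called lower (11.3%, against 5.53% of all genes) and 0 called higher (7.74% of all genes). At an unadjusted p under 0.05, 14 of the 53 were found, against 25.4% of all genes. For the higher direction, 1 gene had an unadjusted p under 0.05, edgeR called 0 and DESeq2 called 1. Groups did not overlap for 6 lower and 1 higher member, against 7.11% and 9.18% of all genes. The family medians were -0.22 for the 5 H1 genes, -0.25 for 14 H2A genes, -0.29 for 11 H2B genes, -0.24 for 10 H3 genes and -0.10 for 13 H4 genes. Summed counts changed least for H4 (ratio 0.969) and H2B (0.935), and more for H1 (0.868), H2A (0.854) and H3 (0.825).

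**Figure D2:**
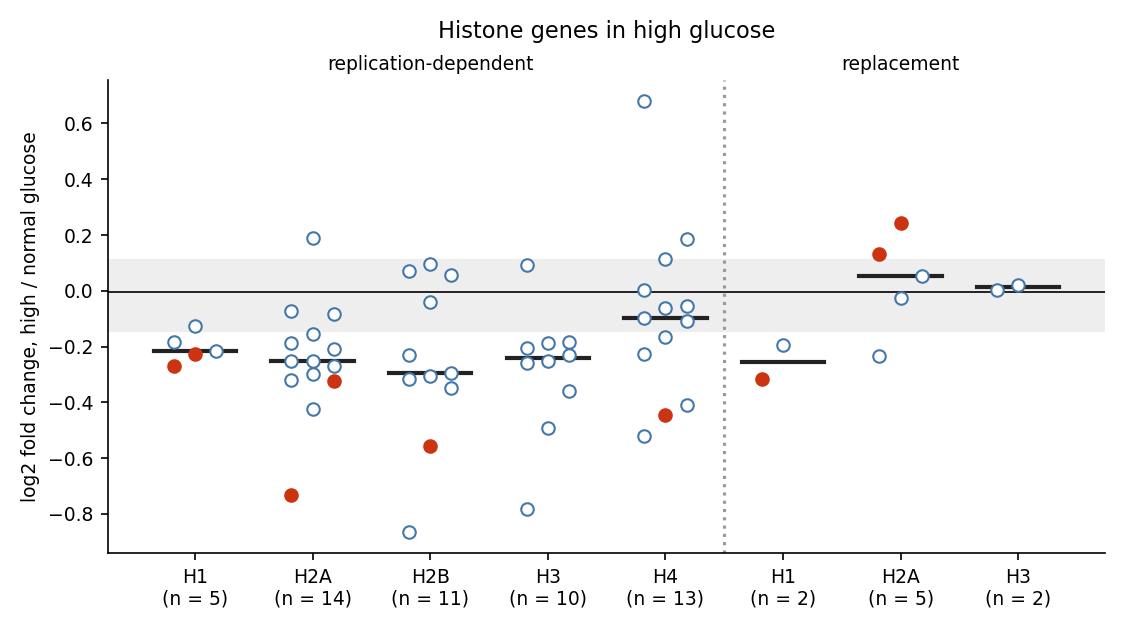
Log2 fold change of each coding histone gene, high over normal glucose (4 libraries each), by class and family. Filled red points have an adjusted p under 0.05, short bars are family medians, and the line and grey band are the median and the middle 50% of all genes tested. Among the 53 replication-dependent genes, 44 lie below 0 and the 6 filled points are all below 0. The replacement genes lie on both sides.

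Among linker histones, Hist1h1c gave 5109, 5176, 6145 and 5653 normalized counts in normal and 5001, 4448, 5083 and 4351 in high glucose. Every high glucose library was below every normal one, and Hist1h1c fell by 14.5% (log2 fold change -0.23, SE 0.052, adjusted p = 0.00257 in limma). Without the mean-dependent trend of the variance it was not called (adjusted p = 0.173). Hist1h1d (H1.3) gave 1421, 1664, 1708 and 1703 in normal and 1369, 1386, 1382 and 1239 in high glucose. It fell by 17.1% (log2 fold change -0.27, SE 0.064, adjusted p = 0.00317), also without overlap, but was not called with the replicate block (adjusted p = 0.0651) or without the trend (0.0895). All 5 replication-dependent H1 genes had a fold change below 0, against 50.8% of all genes. Of these 5, 2 were called lower, against 5.53% of all genes.

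Among core histones, Hist2h2ac (an H2A gene, chr3:96220361-96220880) gave 1107, 1289.8, 986 and 1098 in normal and 924, 904, 931 and 812 in high glucose. It fell by 20.0% (log2 fold change -0.32, SE 0.076, adjusted p = 0.00301), with no overlap, and was not called without the trend (adjusted p = 0.0903). Hist2h4 (H4, chr3:96261682-96263311) gave 338, 379.8, 324 and 348 against 232, 288, 275 and 229, and fell by 26.5% (log2 fold change -0.44, SE 0.12, adjusted p = 0.0121). Without high glucose replicate 6 the adjusted p of Hist2h4 was 0.0539, the highest over its 18 alternatives, of which the lowest was 0.0034.

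The other called core members were Hist2h2ab (H2A, chr3:96219865-96220308) and Hist2h2bb (H2B, chr3:96269752-96270132). Hist2h2ab gave 136, 103, 140.0 and 111 in normal and 70.1, 54.0, 104 and 71.8 in high glucose (log2 fold change -0.73, SE 0.22, adjusted p = 0.0231). High glucose replicate 4 overlapped the lowest normal library. Hist2h2bb gave 127, 151, 173 and 153 against 124, 90.0, 109 and 88.1 (log2 fold change -0.56, SE 0.19, adjusted p = 0.045), with a narrow gap between the groups and with another gene, Gm42743, annotated on the same strand. The calls of both were lost without the trend, with quantile normalization and with the replicate block. The call of Hist2h2ab was also lost without normal glucose replicate 1 or 5 or high glucose replicate 2 or 6 (adjusted p = 0.062, 0.0861, 0.0986 and 0.0526; 0.00947 to 0.149 over all alternatives). That of Hist2h2bb was also lost without any library except normal glucose replicate 1 and high glucose replicate 1 (adjusted p = 0.0745, 0.142, 0.0883, 0.12, 0.0632 and 0.133 without normal glucose 3, 5 and 6 and high glucose 2, 4 and 6; 0.0239 to 0.52 over all alternatives).

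All 4 called core members lie in the Hist2 cluster on chromosome 3, where 7 of 7 listed genes had a fold change below 0 and the summed level had a ratio of 0.776. In the Hist1 cluster on chromosome 13, 35 of 44 genes were below 0, 2 were called lower, and the ratio was 0.901. Over all genes, 50.8% were below 0 and 5.53% were called lower. The difference between the clusters was not tested. The 6 called genes were all among the 15 replication-dependent genes with under 10% of windows shared. The median was -0.22 in that group, -0.21 in 20 genes with 10% to 50% shared and -0.26 in 18 genes with more. With a stem-loop in the model the median was -0.21 (34 genes), and without it -0.25 (19 genes). In the other direction, Hist1h4n (H4) gave 55.7, 39.5, 41.3 and 57.0 in normal and 66.4, 77.3, 80.7 and 84.9 in high glucose, without overlap but not past the threshold (log2 fold change 0.68, SE 0.26, adjusted p = 0.0784). In Hist1h4n 80.7% of windows are shared with other genes.

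**Figure D3:**
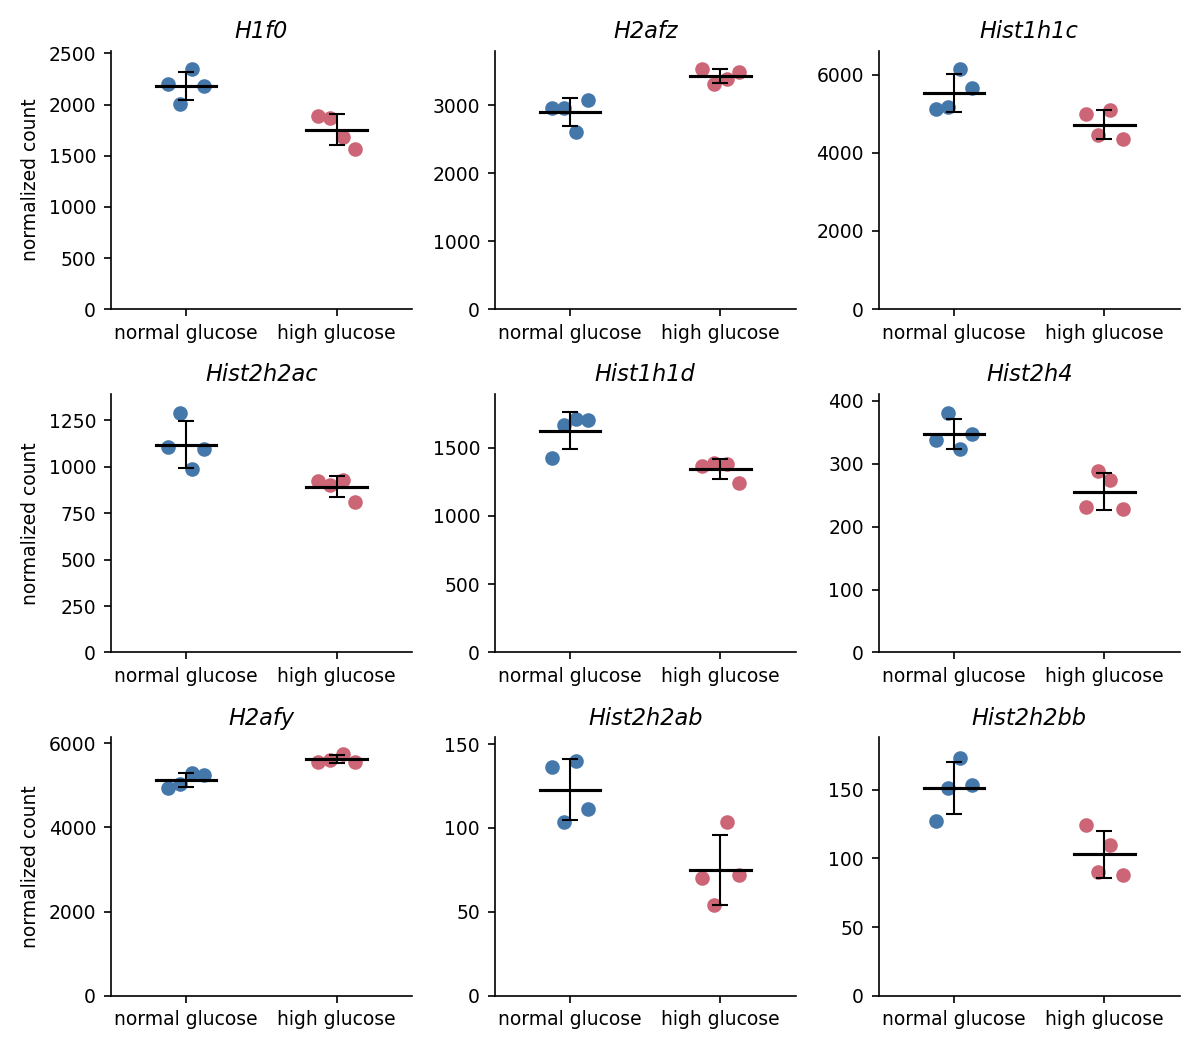
Normalized counts (axis from 0) of the 9 histone genes with an adjusted p under 0.05 in high against normal glucose. Points are libraries and bars are the mean and SD of 4 libraries. Levels run from about 54 in Hist2h2ab to 6145 in Hist1h1c, and H2afz and H2afy are the genes higher in high glucose.

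Replacement histones moved in both directions, with 3 of 9 called against 13.3% of all genes in either direction. H1f0, the linker histone known from resting and differentiated cells, gave 2201, 2006, 2345 and 2178 in normal and 1889, 1874, 1688 and 1568 in high glucose. It fell by 19.7% (log2 fold change -0.32, SE 0.061, adjusted p = 0.000276), the smallest p-value of any member and in the same direction as the replication-dependent H1 genes. Without the trend it was not called (adjusted p = 0.0688). H2afz, which encodes the H2A.Z placed around transcription start sites, gave 2959.6, 2964, 2608 and 3071 against 3537, 3303, 3382 and 3491. It rose by 18.4% (log2 fold change 0.24, SE 0.050, adjusted p = 0.000637), again without overlap, and was not called without the trend (adjusted p = 0.0694). In H2afz 25.7% of windows are shared with other genes.

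H2afy, whose macroH2A1 product is known from silent chromatin, gave 4933, 5030.1, 5292 and 5238 in normal and 5554, 5591, 5754 and 5566 in high glucose. It rose by 9.65% (log2 fold change 0.13, SE 0.040, adjusted p = 0.0221), but not past the threshold without normal glucose replicate 1 or high glucose replicate 4 (adjusted p = 0.0578 and 0.0811; 0.00782 to 0.285 over its alternatives). Its call was also lost without the trend, with total reads, with quantile normalization and with the replicate block (adjusted p = 0.116, 0.238, 0.0924 and 0.285). The H3.3 genes were nearly level: H3f3a had 5792 ± 180 and 5874 ± 175, and H3f3b had 7752 ± 276 and 7776 ± 221. Their log2 fold changes were 0.02 (SE 0.040) and 0.0046 (SE 0.038). The replication-dependent H3 sum had a ratio of 0.825, with overlap between the groups. None of its genes was called (0 of 10, against 5.53% of all genes called lower). The share of H3f3a and H3f3b in the counts per kb of the listed coding H3 genes was 71.5% ± 2.24 in high and 67.0% ± 1.57 in normal glucose. The ranges overlapped (69.0% to 74.3% and 65.6% to 69.2%). The share of H2afz and H2afv in H2A was 22.7% ± 0.912 and 19.0% ± 1.43, without overlap. Both H2A.Z genes did not move together: H2afz was higher, while H2afv had 574 ± 41.1 in normal and 490 ± 59.0 in high glucose and was not called.

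The genes that make and end histone mRNAs were listed separately. Of 27, 5 were called higher (7.74% of all genes were) and 0 lower, with a median log2 fold change of 0.10. For the lower direction, 0 had an unadjusted p under 0.05, and edgeR and DESeq2 called 5 higher and 0 lower. Snrpb, a Sm protein also found in the U7 particle, rose by 0.30 on the log2 scale (SE 0.053, adjusted p = 8.91e-05). Cpsf2, part of the cleavage complex, rose by 0.18 (SE 0.049, adjusted p = 0.00847) and the cap-binding Ncbp1 by 0.22 (SE 0.063, adjusted p = 0.0175). Among 29 histone chaperones and exchange factors, 3 were called higher, a share near the 7.74% of all genes, and 0 lower (median 0.039, 0 lower at an unadjusted p under 0.05, and the same counts with edgeR and DESeq2). These were Daxx, an H3.3 chaperone (0.36, SE 0.059, adjusted p = 2.31e-05), Tonsl, a reader of new H4 (0.20, SE 0.057, adjusted p = 0.0146), and Chaf1a of the replication-coupled CAF-1 complex (0.32, SE 0.11, adjusted p = 0.0395).

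With limma, 2.38% of the DNA replication list and 22.7% of the mitosis list were called lower, against 5.53% of all genes. None of either list was called higher, against 7.74% of all genes. Of 42 DNA replication genes, 0 were called higher and 1 lower, the polymerase subunit Pola1 (log2 fold change -0.35, SE 0.094, adjusted p = 0.00905), and the median was -0.019. EdgeR called 1 lower and DESeq2 called 3. Of 22 mitosis genes, 0 were called higher and 5 lower, also with edgeR and DESeq2, with a median of -0.14 and against 5.53% of all genes called lower. At an unadjusted p under 0.05, 7 of the 42 DNA replication genes and 7 of the 22 mitosis genes were lower, against 1683 of all 14425 genes. In each list 1 gene was higher at that threshold, against 1980 of all genes. EdgeR and DESeq2 called 0 higher in both lists. The smallest p-values were those of Cenpe (-0.32, SE 0.070, adjusted p = 0.0014), Kif23 (-0.29, SE 0.081, adjusted p = 0.0141) and Cenpa. Cenpa is the H3 variant of centromeres, which the naming rule for members leaves out, and it fell from a mean of 1495 to 778.5 (log2 fold change -0.94, SE 0.087, adjusted p = 4.37e-10). The summed level of the 7 macrophage markers moved with the groups too, from 620993 to 695733 in normal to 798427 to 868348 in high glucose, and most of it was Lyz2 (mean 642800 of 845386 in high glucose). Of the 7 markers, 3 were called higher and 2 lower, among them Lyz2 (0.42) and Mertk (-0.40, SE 0.042, adjusted p = 7.85e-09), and their part in the histone values was not tested.

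**Figure D4:**
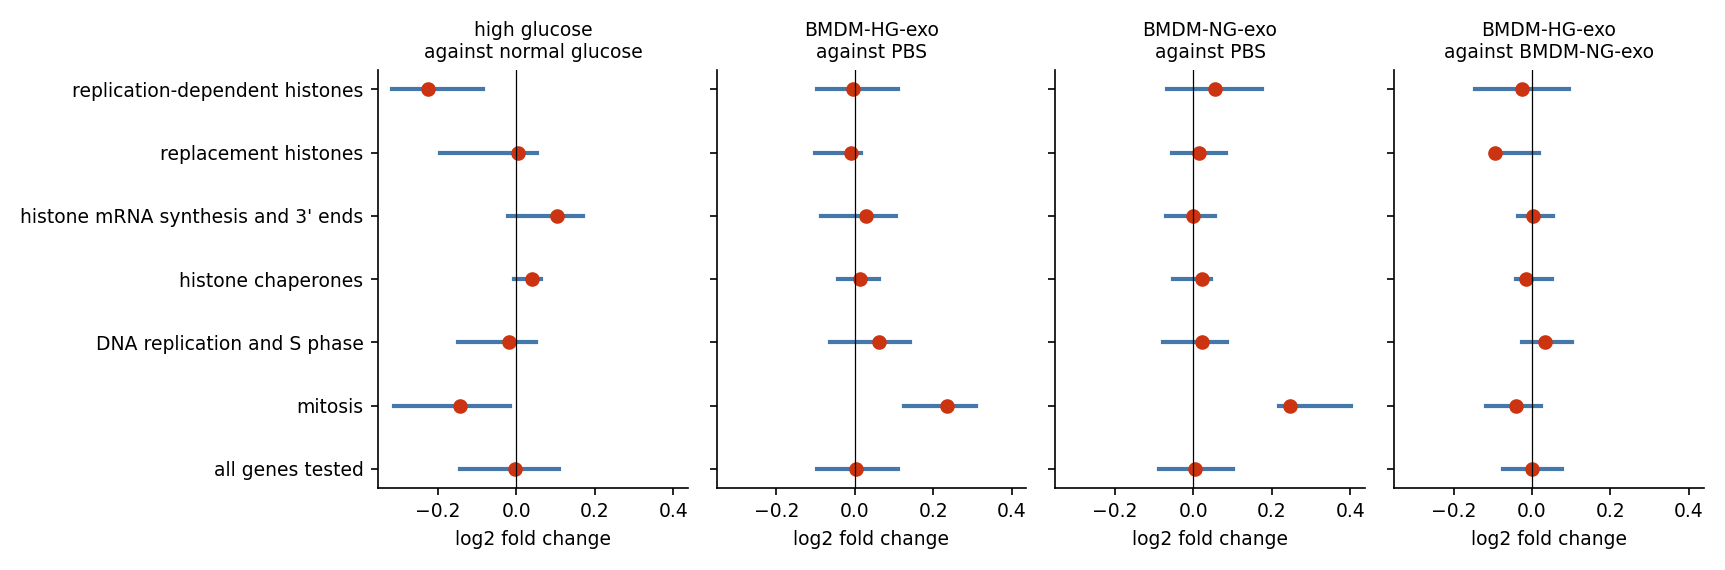
Median log2 fold change (red points) and the middle 50% of genes (blue bars) for both histone classes and 4 gene lists, beside all genes tested, in 4 comparisons. In high glucose the replication-dependent median is -0.23 and the mitosis median -0.14. Against PBS the mitosis medians are 0.24 and 0.25 while both histone classes stay near 0.

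The second question was whether exosomes changed histone transcripts in naive BMDM, where a call also needed a log2 fold change of 0.15 or more in either direction. Replication-dependent histones kept near the level of all genes in each comparison. They summed to 22239 ± 821 normalized counts with PBS, 22581.5 ± 452 with BMDM–NG-exo and 22161 ± 1113.5 with BMDM–HG-exo. Their median log2 fold change was -0.027 for BMDM–HG-exo against BMDM–NG-exo, -0.0037 against PBS and -0.012 against both controls combined, and 0.054 for BMDM–NG-exo against PBS. These comparisons share libraries, so their values stand side by side only.

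No histone gene was called by limma in any of them. The call took in 0.0139% of 14413 genes for BMDM–HG-exo against BMDM–NG-exo, 4.84% against PBS, 0.201% against both controls, and 3% for BMDM–NG-exo against PBS. At an unadjusted p under 0.05, 7 of the 67 members were found for BMDM–HG-exo against BMDM–NG-exo (6.54% of all genes), 4 against PBS (16.9%), 5 against both controls (10.5%), and 2 for BMDM–NG-exo against PBS (13.5%). edgeR and DESeq2 each called 1 member for BMDM–HG-exo against PBS (H3f3b and Hist1h2ag) and 0 in the others.

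The H3.3 genes had the smallest p-values of all members for BMDM–HG-exo against BMDM–NG-exo and against both controls. Against PBS, H3f3b came first for BMDM–HG-exo, ahead of Hist1h2ag and H3f3a, and Hist1h2ag came first for BMDM–NG-exo. H3f3b gave 8095, 8005, 7780.2 and 8283 with PBS, 7697, 7645, 7651 and 7969 with BMDM–NG-exo, and 7216, 7363, 7058 and 7348 with BMDM–HG-exo. All BMDM–HG-exo libraries were below all libraries of both other groups, a pattern of 0.597% of all genes against both controls in the lower direction. Against PBS the log2 fold change was -0.1499 (SE 0.036, adjusted p = 0.00652), just short of the fold limit, and with BMDM–HG-exo replicate 2 or 4, or PBS replicate 2 or 3, left out it passed (-0.158, -0.157, -0.152 and -0.166). Against BMDM–NG-exo it was -0.095 (SE 0.036, adjusted p = 0.621) and against both controls -0.12 (SE 0.033, adjusted p = 0.101).

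H3f3a gave 6421, 6476, 6351 and 6276 with PBS, 6030.3, 6689.6, 6481 and 6169 with BMDM–NG-exo, and 5798, 6116, 5868 and 5852 with BMDM–HG-exo. The BMDM–HG-exo libraries were below the PBS libraries, as in 5.59% of all genes, and overlapped the BMDM–NG-exo libraries. Compared within the date in the titles, BMDM–HG-exo was below BMDM–NG-exo on 4 of 4 dates for H3f3a, as in 8.05% of all genes. For H3f3b the comparison by date adds nothing, since its groups do not overlap and any pairing gives the same count. The log2 fold changes of H3f3a were -0.11 against PBS (SE 0.039, adjusted p = 0.103), -0.10 against BMDM–NG-exo (SE 0.039, adjusted p = 0.633) and -0.11 against both (SE 0.035, adjusted p = 0.22). With the date as a block the adjusted p was 0.0524, 0.412 and 0.19. None passed the threshold.

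**Figure D5:**
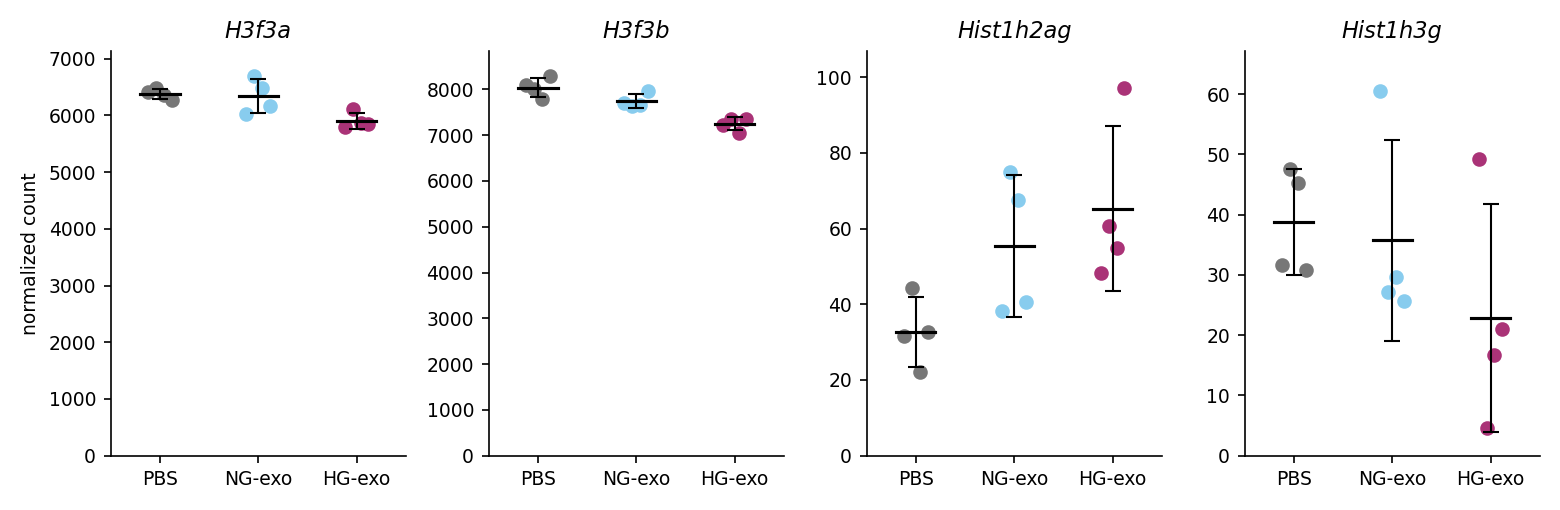
Normalized counts (axis from 0) of H3f3a, H3f3b, Hist1h2ag and Hist1h3g in naive BMDM given PBS, BMDM–NG-exo (NG-exo) or BMDM–HG-exo (HG-exo). Points are libraries and bars are the mean and SD of 4 libraries. The H3.3 genes are lowest with BMDM–HG-exo (5909 and 7246 on average), and the low-count genes spread widely within groups.

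Among replication-dependent genes, Hist1h2ag (H2A) gave 31.7, 44.3, 22.0 and 32.8 with PBS and 48.3, 60.6, 55.0 and 97.1 with BMDM–HG-exo. The log2 fold change was 0.97 (SE 0.33, adjusted p = 0.0815), with no overlap between the groups, as in 4.41% of all genes. With BMDM–NG-exo it gave 38.3, 75, 67.6 and 40.6 (log2 fold change against PBS 0.72, SE 0.33, adjusted p = 0.308). Its windows are shared to 76.2%. Hist1h3g (H3) gave 31.7, 47.6, 45.2 and 30.8 with PBS and 49.3, 4.59, 16.7 and 21.1 with BMDM–HG-exo (log2 fold change -1.10, SE 0.47, adjusted p = 0.209). Without BMDM–HG-exo replicate 1 the change was -1.59 and was called (adjusted p = 0.0442, the lowest over its alternatives, of which the highest was 0.619).

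Between both exosomes, Hist1h4k (H4) gave 194, 194, 178 and 243 with BMDM–NG-exo and 154, 153, 134 and 154 with BMDM–HG-exo (log2 fold change -0.44, SE 0.17, adjusted p = 0.634). These groups did not overlap, as in 2.01% of all genes in the lower direction. H2afj, a replacement H2A, had means of 2166 ± 118 and 2349 ± 96.8 (log2 fold change 0.12, SE 0.054, adjusted p = 0.728). Against PBS the mean of H2afy with BMDM–NG-exo was 5528 ± 357 and with PBS 5872 ± 63.5 (log2 fold change -0.09, SE 0.043, adjusted p = 0.353).
The remaining members with the smallest p-values in a direction all missed the threshold. They were Hist1h2ad and Hist1h4i between both exosomes (log2 fold changes 0.60 and 0.23), Hist1h3b and Hist1h2an for BMDM–HG-exo against PBS (0.34 and 0.41), and Hist1h4f and Hist1h2bj for BMDM–NG-exo against PBS (0.43 and -0.36).

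Some mitosis genes were higher with both exosomes than with PBS, in comparisons that share the PBS libraries. Of 22 mitosis genes, 5 were called higher with BMDM–HG-exo (median 0.24; 1.76% of all genes were called higher) and 3 with BMDM–NG-exo (median 0.25; 0.888% of all genes), and 0 lower in each. EdgeR called 5 and 5 higher, DESeq2 called 6 and 7, and both called 0 lower, as were 0 at an unadjusted p under 0.05 in limma. The proliferation marker Mki67 rose by 0.26 (SE 0.047, adjusted p = 0.000285) and 0.24 (SE 0.047, adjusted p = 0.00103) on the log2 scale. Of 42 DNA replication genes, 0 were called higher in either comparison by limma, edgeR or DESeq2. For limma this is near the 1.76% and 0.888% of all genes. At an unadjusted p under 0.05, 3 and 2 were higher, against 1131 and 897 of all 14413 genes. Called lower were 1 and 0 (Tk1, -0.84, SE 0.23, adjusted p = 0.0226), against 444 and 304 of all 14413 genes. The medians of the DNA replication list were 0.061 and 0.022. Among 29 histone chaperones and exchange factors, 1 (3.45%) was called lower and 0 higher in each comparison, with medians of 0.013 and 0.023. DESeq2 also called 1 higher for BMDM–HG-exo against PBS. The gene called lower was the H3.3 chaperone Daxx. It fell by 0.19 (SE 0.056, adjusted p = 0.0353) with BMDM–HG-exo and by 0.28 (SE 0.056, adjusted p = 0.00131) with BMDM–NG-exo. Among the 27 genes of histone mRNA synthesis and ends, 0 were called in each, with 6 and 3 at an unadjusted p under 0.05 in limma, and DESeq2 called 1 lower for BMDM–HG-exo against PBS. Of the 7 macrophage markers, 4 (57.1%) were called lower and 0 higher in each of these comparisons. Over all 14413 genes, 444 were called lower with BMDM–HG-exo and 304 with BMDM–NG-exo. The part of the macrophage markers in the histone values was not tested.

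The 5 members not classed as protein-coding were Hist3h2bb-ps, H3f3a-ps1, H3f3a-ps2, H3f3c and H3f3aos, the transcript antisense to H3f3a. Their summed level was between 260.0 and 303 on average in the 5 groups, and 0 were called in any comparison by limma, edgeR or DESeq2. At an unadjusted p under 0.05, 0 of the 5 were found in high glucose, 1 for BMDM–HG-exo against BMDM–NG-exo, 1 against both controls and 0 in the comparisons with PBS. Of the other replacement genes, H2afv, H2afx and H1fx were not called in any comparison in the main fits. H2afv was called lower in high glucose with total reads.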

How the data were processed

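The deposited values are gene counts divided by a library size factor, a signal that the authors made by trimming with cutadapt, mapping to GRCm38 with STAR 2.5.3a, counting on the sense strand with FeatureCounts 2.0.1 and scaling with the median ratio of DESeq2 1.20.0. Libraries came from 10 ng of total RNA (SMARTer Stranded Total RNA-Seq Pico kit) with ribosomal cDNA removed. The annotation used for counting is not given in the sources used here, and GENCODE M21 supplied names and models. Whole reads were recovered from each column (100% of values within 0.01 of a whole read), and PBS replicate 4 and BMDM–HG-exo replicate 1 have a factor close to 1. No pair of the 30 within groups looked like copies (chi-square per degree of freedom 5.19 to 41.9).

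Normalized counts were taken to the log2 scale with a pseudocount of 1, and groups were tested two-sided by limma 3.58.1 (R 4.3.3; a mean-dependent trend in eBayes). Genes with a mean of 10 or more entered, and Benjamini-Hochberg adjustment ran over all of them. All 67 members passed this filter in each comparison. The 8 glucose libraries, the 12 exosome libraries in 3 groups, and BMDM–HG-exo against the 8 controls were fitted separately. Alternatives were a pseudocount of 8, no filter, a mean of at least 50, TMM factors, total reads, quantile normalization, no trend, edgeR 4.0.16, DESeq2 1.42.0, no fold limit, a replicate block and leaving out each library. Dates in the titles pair the exosome libraries (1 library of each group per date). The mean correlation of their deviations was 0.011 over 12 same-date pairs and -0.0038 over 36 others.

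Called members and, in each direction, the 3 with the smallest p-value are named with tests, the 3 highest per family and all replacement genes with levels, and up to 3 called genes of each other list. The members, lists and sequences were chosen with earlier results of these data known. The fits were tested on simulated data. Sequences come from GENCODE M21 transcripts and RefSeq promoters.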

Additional observations from a re-analysis of the deposited data

Results flagged for a closer look

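A library stood apart from the 3 others of its group, past Dixon's 95% limit, in 6 of 63 groups of values tested, and chance alone flags about 5% of groups. Hist1h1d was low in normal glucose replicate 1 (1421 against 1664 to 1708 normalized counts) and in high glucose replicate 6 (1239 against 1369 to 1386). It was called lower in all 8 fits without a library, but not with the replicate block (adjusted p = 0.0651) or without the trend (0.0895) in limma. H2afy was low in PBS replicate 1 (5777 against 5895 to 5917). H3f3b was high in BMDM–NG-exo replicate 4 (7969 against 7645 to 7697), and all BMDM–HG-exo libraries were below the other 3. Hist1h3g was high in BMDM–NG-exo replicate 1 (60.6 against 25.7 to 29.6), and Hist1h4k was low in BMDM–HG-exo replicate 3 (134 against 153 to 154).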

How the results depend on the processing

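In high against normal glucose the count of called members was 9 of 67 (13.4%), near the 13.3% of all genes called. It was 5 with the replicate block (library numbers 1 and 6 are the sole ones shared), 2 with no trend and 6 to 12 with 1 library left out. The calls over all genes changed as well, from 1914 to 788 with the block and to 654 with no trend. With 1 library left out they were between 1370 and 2027. With no trend only Hist2h4 of the 9 was still called, the other being Hist1h4n. The block lost H2afy, Hist1h1d, Hist2h2ab and Hist2h2bb. Quantile normalization called 7, without H2afy, Hist2h2ab and Hist2h2bb and with Hist1h4n, and total reads called 12, without H2afy. All 9 were also called under the pseudocount of 8, no filter, a mean of at least 50, TMM factors, edgeR and DESeq2. The mean correlation of deviations was 0.0091 over the 2 pairs with a shared library number and -0.0013 over 14 others. With 2 pairs, this cannot decide whether the numbers pair the samples. The cause of the lower counts was not tested. For BMDM–HG-exo against PBS the count of 0 became 1 with edgeR (H3f3b), 1 with DESeq2 (Hist1h2ag), 1 with no limit on the fold change (H3f3b) and 0 to 1 with 1 library left out. In the other exosome comparisons it was 0 under each alternative, the range with 1 library left out being 0 to 0, and the block by date changed no call. No named fold change reversed its sign.

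The replication-dependent median in high glucose was -0.28 with total reads, which moved the median of all genes to -0.057, and -0.15 with quantile normalization, and between 41 and 47 of 53 genes were below 0 under the scaling, pseudocount, filter and left-out-library alternatives that kept all 53. Among members with under 10% of windows shared, an alternative chosen after seeing the data, it was -0.22. Low-count members with near-identical copies limit what these libraries can show: 32 of 53 replication-dependent genes had a mean under 200 normalized counts.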

Other observations

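Transcripts that lack a poly(A) tail for other reasons were listed as a comparison for the histones. Of 11 such RNAs, 2 were called higher in high glucose (7.74% of all genes were) and 0 lower (0 lower also at an unadjusted p under 0.05 in limma), with a median log2 fold change of 0.033 and 4 of the 11 below 0. EdgeR called 2 higher and DESeq2 1. Rn7sk, which holds the elongation factor P-TEFb inactive, rose by 0.20 (SE 0.040, adjusted p = 0.000388) and Rn7s1, an RNA of the signal recognition particle, by 0.46 (SE 0.14, adjusted p = 0.0227). In the exosome comparisons 0 of the 11 were called by limma, edgeR or DESeq2. The medians were -0.21 for BMDM–HG-exo against BMDM–NG-exo, 0.12 and 0.22 against PBS for BMDM–HG-exo and BMDM–NG-exo, and -0.046 against both controls. In the same order, 0, 2, 5 and 1 of the 11 had an unadjusted p under 0.05 in limma. Over all genes the shares were 6.54%, 16.9%, 13.5% and 10.5%. The 5 for BMDM–NG-exo against PBS were all higher.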
